A study of Bos taurus with 8 samples.

Results

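TAF and MED genes encode parts of the machinery that starts transcription. Every probe whose gene symbol in the platform annotation was TAF or MED followed by a digit was taken, which gave 66 probes for 47 genes, 20 TAF and 27 MED, of 15229 genes with a symbol. The brightest probe by raw intensity stood for each gene. The TAF family was selected on these same data, because its members leaned higher in BSO embryos in the deposited values. All BSO against control values of members below are therefore descriptions and were not tested as results. The name of the set is wider than TFIID: 13 of the TAF symbols were subunits of TFIID, and the others were TAF1A, TAF1B, TAF1C and TAF1D of an RNA polymerase I factor, TAF5L and TAF6L of the SAGA coactivator, and TAF15, an RNA-binding protein. TAF1, TAF3, TAF9, MED8, MED14 and MED16 are not analysed here.

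TFIID is the general factor that holds the TATA-binding protein TBP on core promoters together with its TBP-associated factors, the TAFs. Many TAFs contain a histone fold and enter the complex as pairs. Mediator is a large coactivator that carries signals from activators at enhancers to RNA polymerase II, and is built of a head, a middle, a tail and a kinase module that joins reversibly. An embryo needs transcription by RNA polymerase II once its own genome is switched on.

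The embryos were bovine blastocysts made in vitro with oocytes from slaughter ovaries. BSO, buthionine sulfoximine, blocks glutamate-cysteine ligase, the first step of glutathione synthesis, and the comparison asks which transcripts differ in blastocysts that grew with this block. The BSO group received 0.4 mM BSO from day 3 to day 5 and 0.01 mM from day 5 to day 7 in synthetic oviductal fluid, while the control group, called Control-Oxid in the labels, received no agent. Both were collected at 196 h after fertilization in pools of 10 embryos, 4 pools per treatment. Each of 8 EmbryoGENE arrays carried BSO RNA in one dye and control RNA in the other, with BSO in Cy5 on 4 arrays and in Cy3 on 4. Arrays of opposite dyes that appeared to share pools were averaged, which cancels the dye and leaves 4 replicates. Slide 25 held replicates 3 and 4, and a pair of other slides held replicates 1 and 2. Whether the pools were separate cultures is not stated in the labels, so p-values measure only the spread between these pools, which may be technical.

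Each value is the log2 of the BSO level over the control level, so that 0 means no difference relative to the other genes and 1 a doubling, with n = 4. A member was kept if its probe exceeded the 95th percentile of 153 negative control spots for BSO RNA or for control RNA on 4 or more of the 8 arrays. Of the members, 45 were kept, 19 TAF and 26 MED. TAF5L passed the limit on 2 arrays with BSO RNA and 3 with control RNA, and MED12L on 0 of 8 for either, so both were near background. Because a pool of whole embryos was measured, fewer cells of a type and less RNA per cell cannot be told apart.

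The TAF genes as a group sat higher in BSO blastocysts than the MED genes. Of 19 kept TAF genes, 13 had a mean above 0, against 11 of 26 MED genes and 51.3% of all 13686 genes kept. The median was 0.096 for TAF genes, -0.010 for MED genes and 0.0040 for all genes. In the deposited values 15 of 19 TAF and 15 of 26 MED genes lay above 0, against 54.6% of all genes. The deposited medians were 0.100 for TAF genes, 0.0070 for MED genes and 0.0172 for all genes. The TAF median was above the MED median in every replicate. By replicate it was 0.057, 0.11, 0.097 and 0.14 for TAF genes, and -0.013, -0.011, -0.042 and -0.045 for MED genes. The lean of the TAF genes is the property that selected them.

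Single members varied more than these medians. Across the TAF genes the mean ran from -0.22 for TAF15 to 0.58 for TAF13, and across the MED genes from -0.42 for MED29 to 0.58 for MED4. The SD between replicates had a median of 0.138 for TAF genes and 0.216 for MED genes, against 0.151 for all genes. All 4 replicates were above 0 for 7 TAF and 3 MED genes, where 16.9% of all genes had this pattern. All 4 were below 0 for no TAF gene and 3 MED genes, where 17.8% did. At an unadjusted p under 0.05 with limma, 6 TAF and 2 MED genes were higher against 10.4% of all genes, and 0 TAF and 2 MED genes were lower against 14.8%. After Benjamini-Hochberg adjustment no member passed 0.05, as was so for 0% of all genes. In a fit of the 8 single arrays with a dye term and matched arrays as a replicate block, 7 members passed, against 13.1% of all genes. They were TAF13, TAF7, TAF8, TAF1D, MED4, MED10 and MED12. Without replicate 4, 8 of 26 MED genes had an unadjusted p under 0.05 in place of 4, against 20.7% of all genes. Since the rule used this contrast, nothing is read from these counts.

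**Figure D1:**
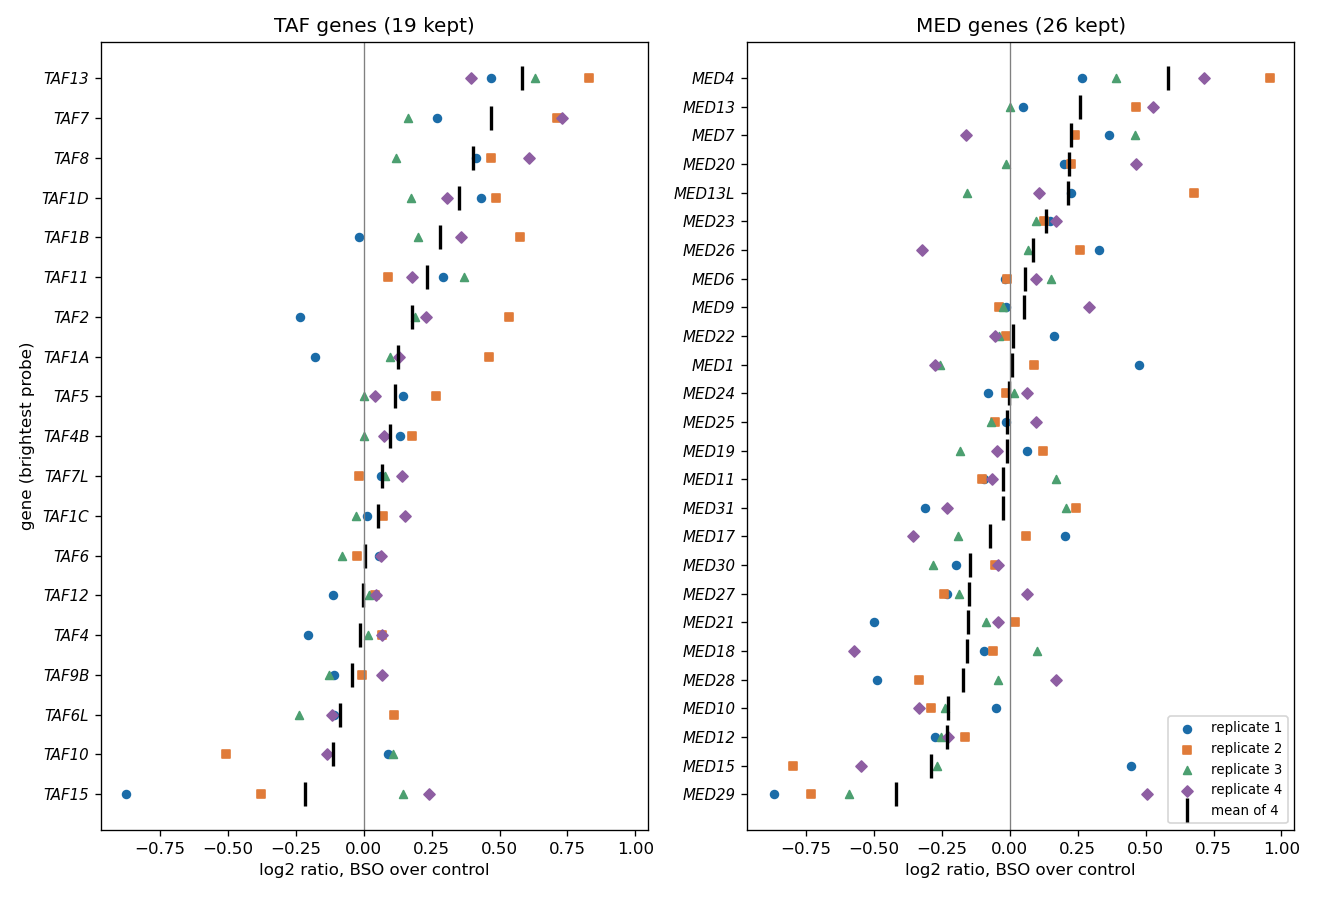
Log2 ratio of BSO over control (x axis) of the 19 kept TAF genes and the 26 kept MED genes (y axis, ordered by mean), with a point per replicate and a bar at the mean of 4. All points lie to the right of 0 for TAF13, TAF7, TAF8, TAF1D, TAF11, TAF5, TAF4B, MED4, MED13 and MED23, in some genes only just. TAF15, MED15 and MED29 have points on both sides.

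The highest TFIID member was TAF13, a histone-fold subunit that pairs with TAF11 beside TBP. Its 4 replicates were 0.47, 0.83, 0.63 and 0.395, a mean of 0.58 ± 0.19 (SD, n = 4) or 1.5-fold. All replicates were above 0, and so were all 8 arrays, the lowest at 0.265 and the highest at 1.06. A second, dimmer TAF13 probe gave 0.31, 0.43, 0.41 and 0.34, a mean of 0.375 ± 0.058 (SD, n = 4). Both probes of TAF13 therefore leaned the same way in every replicate. Its partner TAF11 was at 0.29, 0.089, 0.37 and 0.18, with a mean of 0.23 ± 0.12 (SD, n = 4). TAF11 was above 0 in each replicate but not on each array: it averaged 0.45 with BSO in Cy5 and 0.015 with BSO in Cy3.

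TAF7, which binds the large subunit TAF1, was the next highest. The replicates of TAF7 were 0.27, 0.71, 0.16 and 0.73, a mean of 0.47 ± 0.295 (SD, n = 4) or 1.38-fold. Replicates 2 and 4 were high and replicates 1 and 3 lower, and all 8 arrays were above 0. Its paralog TAF7L, known from the mouse testis, had 0.065, -0.016, 0.080 and 0.14 on a probe near the negative controls, with a mean of 0.068 ± 0.065 (SD, n = 4). Thus 3 of 4 TAF7L replicates were above 0, all below the TAF7 mean.

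TAF8 carries a histone fold that pairs with TAF10, and in the mouse its loss leads to death of inner cell mass cells. Its replicates were 0.41, 0.47, 0.12 and 0.61, a mean of 0.40 ± 0.21 (SD, n = 4) or 1.32-fold, with all 8 arrays above 0. Replicate 3 was the lowest, and the mean was alike with BSO in Cy5 (0.40) and in Cy3 (0.40). TAF10, shared by TFIID and SAGA, was the brightest member and did not move with TAF8: its replicates were 0.091, -0.51, 0.11 and -0.14, a mean of -0.11 ± 0.29 (SD, n = 4). The TAF10 replicates fell on both sides of 0. TAF2, which contacts initiator sequence at promoters, was at -0.23, 0.53, 0.19 and 0.23, a mean of 0.18 ± 0.32 (SD, n = 4), with replicate 1 alone below 0.

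The scaffold subunit TAF5, with a WD40 domain, was at 0.146, 0.27, 0.0017 and 0.041, a mean of 0.11 ± 0.12 (SD, n = 4). All 4 were above 0, but replicate 3 by almost nothing, and the lowest TAF5 replicate in the deposited values was -0.040. TAF4, which pairs with TAF12, was at -0.21, 0.067, 0.014 and 0.068, a mean of -0.014 ± 0.13 (SD, n = 4). Its germline paralog TAF4B, needed in mouse oocytes, was at 0.135, 0.18, 0.0013 and 0.073, with a mean of 0.096 ± 0.076 (SD, n = 4). The paralogs overlapped in range, and all TAF4B replicates were above 0. By orientation, TAF4B averaged -0.0375 with BSO in Cy5 and 0.23 with BSO in Cy3. The probes of TAF5 and TAF4B were near the negative controls, each above the limit on 6 of 8 arrays for control RNA. TAF12 and TAF9B had means of -0.0022 and -0.044, each with replicates on both sides of 0. TAF6, the histone-fold partner of TAF9, was at 0.057, -0.024, -0.081 and 0.064, a mean of 0.0040 ± 0.069 (SD, n = 4). Of the 13 kept TFIID subunits, 9 were above 0, with a median of 0.096, while 5 of the 10 kept TAFs with a histone fold, TAF6L included, were above 0, with a median of 0.00090.

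Outside TFIID, TAF1A to TAF1D form, with TBP, the selectivity factor SL1 that places RNA polymerase I on ribosomal DNA. All 4 had a mean above 0, with a median of 0.20. TAF1D was at 0.43, 0.49, 0.175 and 0.31, a mean of 0.35 ± 0.14 (SD, n = 4) or 1.27-fold, and all 8 arrays were above 0. TAF1B had a mean of 0.28 ± 0.25 and TAF1A of 0.13 ± 0.26 (SD, n = 4), and both were below 0 in replicate 1 and highest in replicate 2, at 0.58 and 0.46. TAF1C, on a dim probe, had a mean of 0.051 ± 0.078 (SD, n = 4), and a second TAF1C probe gave -0.029. TAF1D alone among the 4 was above 0 in every replicate.

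SAGA is a histone acetyltransferase and deubiquitinase that shares several TAFs with TFIID. TAF6L, its own paralog of TAF6, was at -0.11, 0.11, -0.24 and -0.12, a mean of -0.088 ± 0.145 (SD, n = 4), below 0 in 3 replicates. TAF6L was also above the background limit on 4 arrays for BSO RNA and 7 for control RNA. TAF15 split by slide: its replicates were -0.88 and -0.38 on the slide pair, and 0.14 and 0.24 on slide 25.

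In the Mediator middle module, MED4 had the largest mean of all MED genes. Its replicates were 0.27, 0.96, 0.39 and 0.715, a mean of 0.58 ± 0.31 (SD, n = 4) or 1.5-fold. Every replicate of MED4 was above 0, although 1 of 8 arrays was at -0.0063. MED10, a neighbour in the middle module, was at -0.051, -0.29, -0.24 and -0.33, a mean of -0.23 ± 0.125 (SD, n = 4) or 1.17-fold lower. All MED10 replicates were below 0, but its second, dimmer probe had a mean of -0.0019 ± 0.067 (SD, n = 4). MED7 and MED21 form the hinge of the module. MED7 had a mean of 0.23 ± 0.27 and MED21 of -0.15 ± 0.235 (SD, n = 4), and both had replicates on either side of 0. MED1, which binds nuclear receptors, had a mean of 0.0074 ± 0.35, and MED26, which takes part in handing the polymerase to elongation factors, of 0.084 ± 0.29 (SD, n = 4). Of the 9 middle subunits 5 were above 0, with a median of 0.0074.

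In the head, which contacts the polymerase, 3 of 6 kept subunits were above 0, with a median of -0.0058, from -0.16 for MED18 to 0.22 for MED20. These 2 are neighbours in the movable jaw of the head, and lay at opposite ends of the range here, with SDs of 0.29 and 0.196. None of the head subunits had the same sign in all 4 replicates.

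MED27, MED28, MED29 and MED30, found at the border of head and tail, all had a mean below 0, with a median of -0.16. By replicate this median was -0.36, -0.29, -0.24 and 0.12, so replicate 4 stood on the other side. MED29 showed it most, at -0.87, -0.73, -0.59 and 0.51, with a mean of -0.42 ± 0.63 (SD, n = 4). Its other probes, both dimmer, gave 0.0057 and 0.0036. MED30 was the 1 gene of the 4 with all replicates below 0, at -0.197, -0.054, -0.28 and -0.044, a mean of -0.145 ± 0.12 (SD, n = 4). Its other probes had means of -0.022 and -0.078, the first with replicates on both sides of 0.

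In the tail, which receives activators, MED23, to which the factor ELK1 binds, varied least. Its replicates were 0.147, 0.12, 0.096 and 0.17, a mean of 0.13 ± 0.032 (SD, n = 4) or 1.10-fold, with all 8 arrays above 0. MED15, which meets SREBP and SMAD proteins, had replicates at 0.45, -0.80, -0.27 and -0.55, a mean of -0.29 ± 0.54 (SD, n = 4). MED24 and MED25 had means of -0.0046 and -0.0096. The tail thus held the steadiest MED gene and one of the least steady. These 2 probes differed in brightness, with a mean log2 raw intensity of 7.86 for MED23 and 11.9 for MED15. A second MED23 probe, too dim to be kept, had a mean of 0.0345.

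The kinase module gave opposite signs for its 2 large subunits. MED12, which activates the cyclin-dependent kinase CDK8, was at -0.28, -0.16, -0.255 and -0.23, a mean of -0.23 ± 0.0485 (SD, n = 4) or 1.17-fold lower. All 8 arrays of MED12 were below 0, between -0.305 and -0.125. MED13, which ties the module to the rest of Mediator, was at 0.050, 0.46, 0.00073 and 0.53, a mean of 0.26 ± 0.27 (SD, n = 4). Its second kept probe had a mean of 0.265 ± 0.25 (SD, n = 4). The MED13 values were high in replicates 2 and 4, and near 0 in replicate 3 on the brightest probe. The paralog MED13L was at 0.225, 0.68, -0.16 and 0.11, a mean of 0.21 ± 0.35 (SD, n = 4), and overlapped MED13. Their partners without a MED symbol, CDK8, CDK19 and cyclin C (CCNC), had means of 0.025, 0.037 and 0.14, and none of these had the same sign in all replicates.

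Over all modules, 4 TAF genes and MED23 were above 0 on all 8 arrays, where 5.45% of all genes were. MED12 was below 0 on all 8, where 6.47% were.

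**Figure D2:**
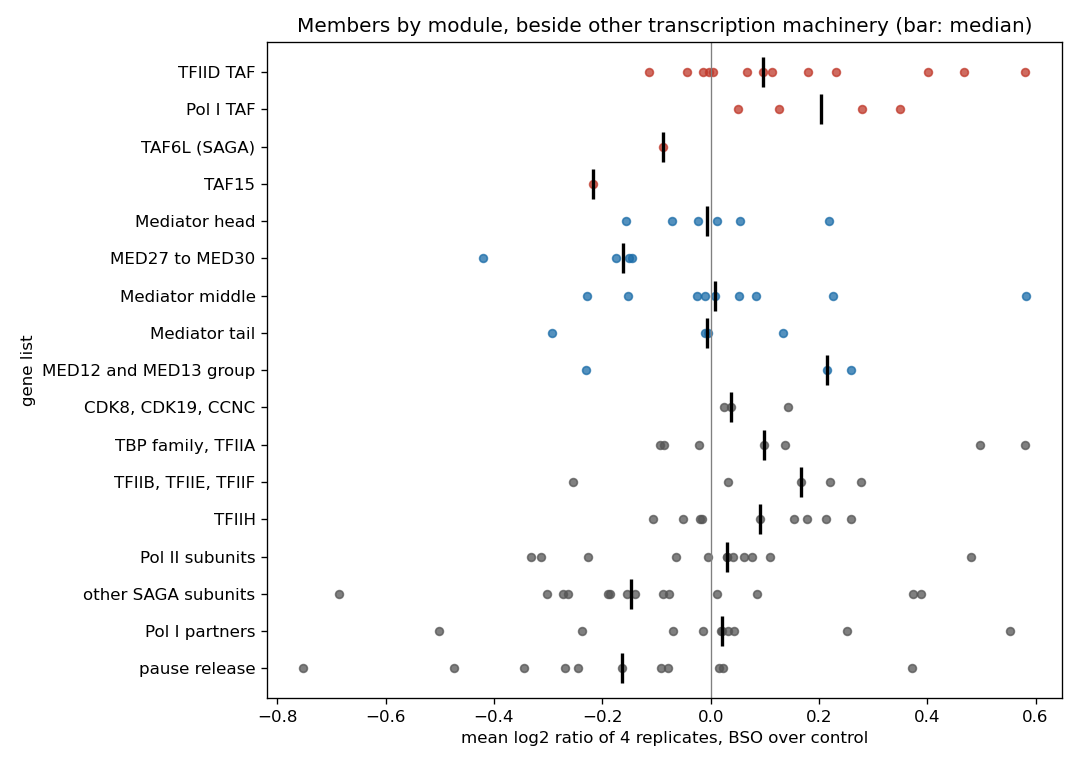
Mean log2 ratio of BSO over control (x axis; mean of 4 replicates) of each kept TAF gene (red) and MED gene (blue) by complex or module, beside other transcription machinery (grey), with a bar at each median. The 4 RNA polymerase I TAFs lie above 0 and MED27 to MED30 below it, while the other Mediator modules spread over both sides.

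Genes that work with these complexes served for comparison. Of 7 kept genes of the TBP and TFIIA list, 4 were above 0, with a median of 0.099. GTF2A1, a subunit of TFIIA, had a mean of 0.58 ± 0.18, and BTAF1, which removes TBP from DNA, of 0.50 ± 0.41 (SD, n = 4). TBP itself was at -0.093 ± 0.26 (SD, n = 4). For TFIIB, TFIIE and TFIIF 4 of 5 genes were above 0, for TFIIH 5 of 9, and for RNA polymerase II subunits 7 of 12, with medians of 0.17, 0.0905 and 0.030. The highest in these lists were GTF2F2 at 0.28, CDK7 at 0.26 and POLR2B at 0.48. The lowest were GTF2F1 at -0.25, GTF2H3 at -0.11 and POLR2I at -0.33. At an unadjusted p under 0.05 with limma, 1 gene of each list was higher, and 0, 0 and 2 were lower. Of all genes 10.4% were higher and 14.8% lower. Partners of RNA polymerase I were split, 6 of 10 above 0 with a median of 0.020, unlike the 4 TAFs of SL1, and ran from POLR1D at -0.50 to POLR1F at 0.55. No test of this difference was made.

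Other subunits of SAGA were mostly lower, 10 of 14 below 0 with a median of -0.147, and 6 of them at an unadjusted p under 0.05 with limma, a call made for 14.8% of all genes. ATXN7L3, of its deubiquitinase part, was at -0.69 ± 0.62, whereas ENY2 of the same part was at 0.37 ± 0.115 (SD, n = 4). Of 11 genes of pause release, the step after initiation, 8 were below 0 with a median of -0.16. Of the 11, 5 were lower at an unadjusted p under 0.05 with limma, against the same 14.8% of all genes. ELL, an elongation factor, had a mean of -0.75 ± 0.63 and NELFE of -0.47 ± 0.40, while ELL2 was at 0.37 ± 0.67 (SD, n = 4). None of these genes passed the adjusted threshold.

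Markers of the cell types that a blastocyst pool could hold were measured on the same arrays. Of 10 trophectoderm markers all were kept and 8 were below 0, with a median of -0.19. Their summed normalized level across replicates was 71400 to 119000 in BSO channels against 100000 to 141000 in control channels. KRT19, at -1.21, and IFNT, at -1.12, were the lowest. Inner cell mass markers (6 of 6 kept, 3 below 0) summed to 14800 to 23700 against 12600 to 20000, and hypoblast markers (4 kept, 2 below 0) to 8940 to 21300 against 14300 to 23400. Of 10 cumulus and granulosa markers 8 were kept, with sums of 2180 to 3820 against 2330 to 3770, and AMH and FOXL2 were not kept. The part of cell composition in the TAF and MED values was not tested.

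Brightness also went with the values. Across all genes, the median size of the log2 ratio was 0.20 for genes brighter than 2 times the limit on negative controls and 0.062 for dimmer ones. Of the TAF genes 9 were in the brighter class, with a median of 0.23 and 6 above 0, and 10 in the dimmer class, with a median of 0.059 and 7 above 0. The medians of the 17 brighter and 9 dimmer MED genes were -0.025 and -0.0096. TAF8, on a dim probe, had a larger mean than all other members but TAF13, TAF7 and MED4. No member was saturated: the brightest, TAF10, reached 49.1% of its array's maximum.

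**Figure D3:**
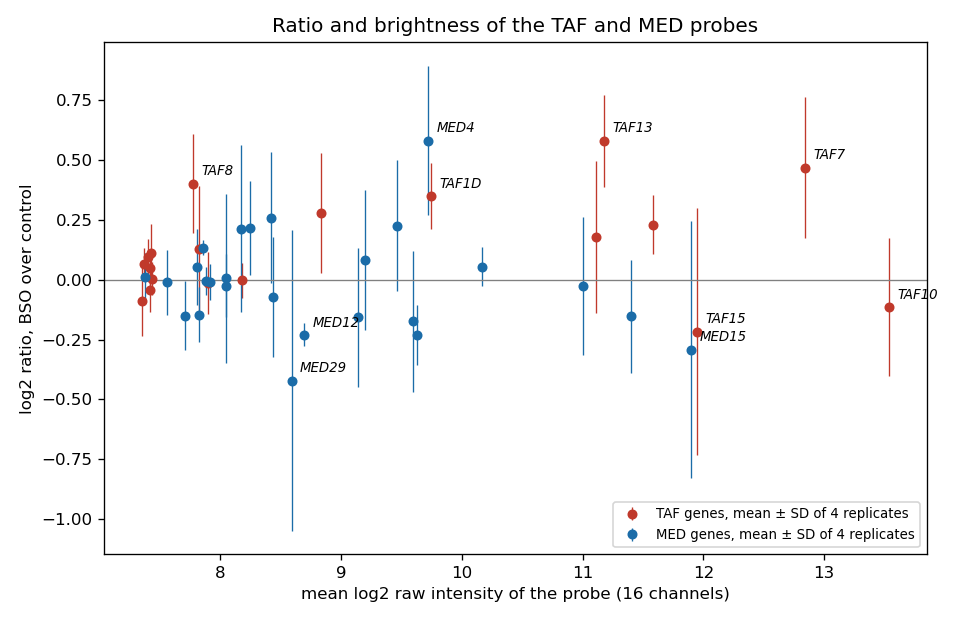
Mean log2 ratio of BSO over control (y axis; bars, SD of 4 replicates) against the mean log2 raw intensity of the probe over 16 channels (x axis) for 19 TAF genes (red) and 26 MED genes (blue). Probes left of 8 lie between -0.15 and 0.13, TAF8 excepted, while the brighter ones spread from -0.42 to 0.58.

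Probes of the same gene offered a second reading of 13 members. No gene had kept probes whose means differed by over 0.5. The widest gap was that of MED29, described above. MED31 had -0.025 on its brightest probe and -0.33 on the other, and the probes of MED21 gave -0.15, 0.078 and -0.18. The kept probes of MED13, and those of TAF13, lay on one side of 0, while another MED13 probe, too dim to be kept, had a mean of -0.033. Different probes may detect different transcript forms, which was not tested.

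**Figure D4:**
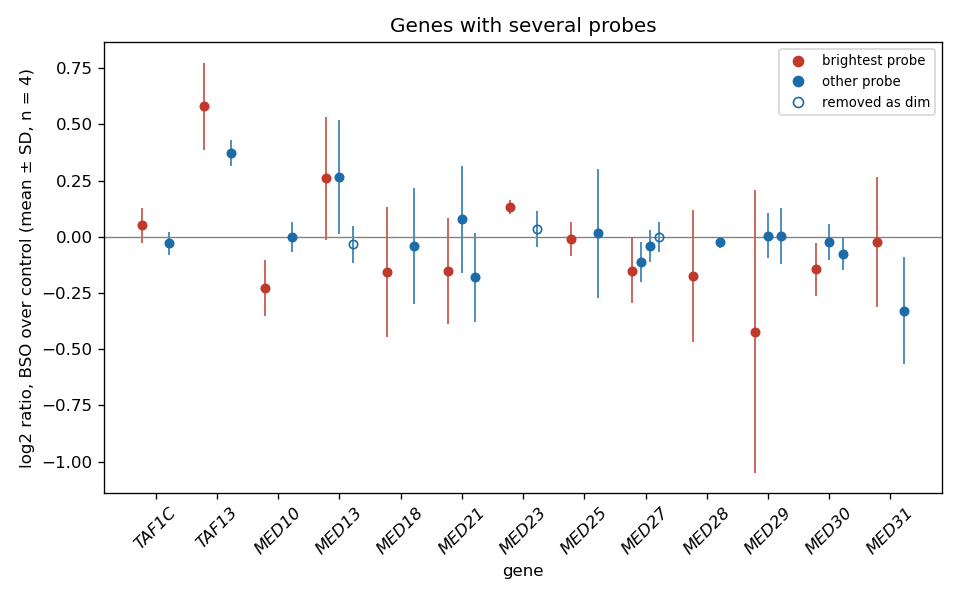
Log2 ratio of BSO over control (y axis; mean and SD of 4 replicates) for every probe of the 13 genes with several probes (x axis), the brightest in red, others in blue and probes too dim to be kept as open circles. Kept probes of TAF13 and MED13 lie above 0, while the other probes of MED29 and MED10 lie near 0, above their brightest probe.

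A further pair of measures did not depend on the mean that chose the members: the difference between slide sets and the effect of the dye. The BSO effect differed between slide 25 and the slide pair for none of the members at an adjusted p of 0.05 (limma, Benjamini-Hochberg), as for 0% of all genes. At an unadjusted p under 0.05 it differed for 1 TAF and 3 MED genes, against 7.88% of all genes. Those 4, chosen here after their values were seen, were TAF15, MED1, MED28 and MED17, each with a limma adjusted p of 0.714. TAF15 was 0.82 ± 0.197 (limma SE) higher on slide 25, at 0.19, than on the slide pair, at -0.63. MED28 went the same way by 0.475 ± 0.12, while MED1 fell by 0.55 ± 0.16 and MED17 by 0.405 ± 0.11 (limma SE). With 2 replicates per slide set, these differences rest on few pools. The TAF median was 0.14 on the slide pair and 0.11 on slide 25, and the MED median -0.030 and -0.034. Unlike the differences, these medians are parts of the mean that chose the TAF genes, and are descriptions.

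The dye affected many members. With limma, 7 TAF and 9 MED genes had a dye effect at an adjusted p under 0.05, against 45% of all genes. The largest was that of MED21, whose mean was -0.50 with BSO in Cy5 and 0.19 with BSO in Cy3 (limma adjusted p = 5.09e-05). MED7 was at 0.48 and -0.028 (adjusted p = 0.000424), TAF1C at -0.197 and 0.30 (0.00105), TAF6L at -0.33 and 0.15 (0.00512) and MED4 at 0.81 and 0.355 (0.0004), all by limma. Of these 5, MED4 alone kept its sign in both orientations. Among TAF genes 9 were above 0 in both orientations, 1 was below in both and 9 had opposite signs. Among MED genes the counts were 9, 9 and 8. The share of all genes in these groups was not counted, so nothing is read from these counts. TAF13 (0.76 and 0.40), TAF7 (0.45 and 0.49), TAF8, TAF1D (0.44 and 0.26) and MED12 (-0.245 and -0.22) kept their sign. TAF13 still had a dye effect (limma adjusted p = 0.00187). So did its second probe, at 0.62 and 0.13 (limma adjusted p = 0.000243). The TAF median was 0.045 with BSO in Cy5 and 0.15 with BSO in Cy3, and the MED median was -0.062 and 0.0285. Signs and medians by orientation are also parts of the mean that chose the TAF genes, and are descriptions.

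**Figure D5:**
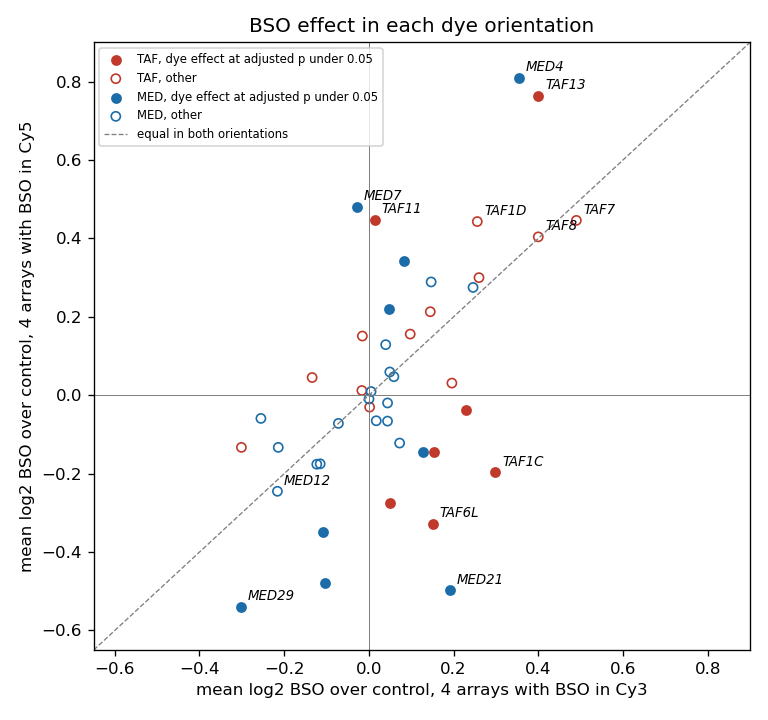
Mean log2 ratio of BSO over control on the 4 arrays with BSO in Cy5 (y axis) against the 4 arrays with BSO in Cy3 (x axis) for the 45 kept members. Filled points have a dye effect at a limma adjusted p under 0.05; TAF7 and TAF8 lie near the dashed line of equality, and MED21, MED7, TAF1C and TAF6L have opposite signs in the 2 orientations.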

How the data were processed

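Per the file headers, the deposited scanner files of 8 arrays held raw mean spot and local background intensity at both wavelengths. A second deposited table held log2 values by the authors. The submitters' processing notes name limma, and further steps are not given in the sources used here. The table's direction was read from its correlation with ratios computed from the scanner files (0.889 to 0.989): BSO over control on every array, with medians of 0.0011 to 0.013.

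Intensities were corrected with normexp (offset 50) and normalized by loess within arrays, with control spots at weight 0, in R 4.3.3 with limma 3.58.1 (statmod 1.5.0, jsonlite 2.0.0). The filter kept 36995 of 43794 gene probes, and p-values were adjusted over these. Symbols came from the platform annotation, and all 47 members had a current RefSeq symbol, while older symbols of some other genes were updated through RefSeq. No genome build was named, so no coordinates are given. The labels do not say which arrays share pools. Arrays of opposite dye orientation were matched by the summed correlation of their deviations (2.98, against 1.44 for the second of 24 matchings; pairs at 0.657 to 0.843), which equalled their order within slides, and averaged. The matched pair is the replicate block of the alternative fit. The mean was fitted against 0 with lmFit and eBayes. The precision is limited by the number of pools.

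Members and gene lists were chosen with earlier results of these data known. Replicate values are given for the 6 TAF and 6 MED genes of largest mean with the same sign in all replicates and for paralog pairs, and others only to describe their modules. At most 3 genes are named of other lists, and 5 of a test, with TAF13 added for the dye. The fits were tested on simulated data. Alternatives covered the source of the values, background, normalization, filter, model, array weights, replicates, slides, dye orientation, probe choice and membership.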

Additional observations from a re-analysis of the deposited data

Results flagged for a closer look

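In 2 of 45 members, 1 replicate stood far from the other 3. MED9, a middle subunit of Mediator, was at 0.29 in replicate 4, while the others lay between -0.039 and -0.013. MED11, a head subunit, was at 0.169 in replicate 3, while the others lay between -0.10 and -0.067. Chance marks about 1 in 20 groups of this size.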

How the results depend on the processing

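With the deposited values, without background correction, with median centring, without the filter on dim probes, with array weights and with the median of a gene's probes, no member passed the adjusted threshold and all counts stayed within 1.5 times those reported. Of all 36995 kept probes, 220 passed with the deposited values, 468 without background correction and 356 with array weights. Without the filter 91 of 43794 gene probes passed. With median centring and with the median of a gene's probes, 0 passed. The MED median lay close to 0 and changed sign to 0.0070 with the deposited values, where the median of all genes was 0.0172. A stricter filter tested 26 members, 9 TAF and 17 MED. Of the 9 TAF genes 6 were above 0, against 3134 of 6575 genes that passed this filter. The TAF median was 0.231. At an unadjusted p under 0.05, 3 of the 9 TAF genes were higher, and 1 of the 17 MED genes passed. Fitting 8 arrays with a dye term gave 7 members at the adjusted threshold with the replicate block (within-pair correlation 0.543) and 10 without it. Of all 36995 kept probes, 3948 passed with the block and 7011 without it. At the unadjusted threshold there were 8 and 9 MED genes. The fit without the block treats arrays that share pools as independent. Leaving out 1 replicate gave 4 to 8 MED genes. The slide pair with replicates 1 and 2 alone gave 3 TAF genes higher and medians of 0.141 (TAF) and -0.0299 (MED), and slide 25 alone a MED median of -0.0337. Arrays with BSO in Cy5 alone gave 11 members at the adjusted threshold, where 7668 of all 36995 kept probes passed. They gave 8 MED genes at the unadjusted one and medians of 0.0452 and -0.0621. In a single orientation the dye does not cancel. Arrays with BSO in Cy3 alone gave 0 members at the adjusted threshold, where 0 of all 36995 kept probes passed. They gave 2 MED genes at the unadjusted one and medians of 0.152 and 0.0285. The dye effect was called for 11 to 19 members and no slide-set difference passed under its alternatives. Except without replicate 4, the share of all genes at the unadjusted threshold was not counted in these alternatives. Nor was the share with a dye effect, so nothing is read from these member counts. Of the values of single named genes, 269 kept direction and side of the unadjusted threshold, 15 lost and 14 gained it, and 15 changed sign. TAF4 turned to 0.034 with the deposited values, 0.015 without background correction, 0.050 without replicate 1 (lowest without replicate 4, -0.042), 0.041 on slide 25 and 0.0018 with BSO in Cy3. TAF6 turned to -0.010 with array weights, -0.0135 and -0.016 without replicates 1 and 4 (highest without replicate 3, 0.032), -0.0083 on slide 25 and -0.146 with BSO in Cy5. With BSO in Cy5 TAF4B turned to -0.0375, and with BSO in Cy3 TAF6L to 0.152 and TAF7L to -0.015. TAF6L was at 0.00047 on the slide pair and MED13L at -0.025 on slide 25. The causes were not tested.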
